A study of Rattus norvegicus with 8 samples.

Results

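The genes examined here belong to the interferon response and to the machinery that interferons induce for presenting antigen. They were taken as a list of 43 genes in 5 roles, namely 18 antiviral effectors, 5 sensors of foreign nucleic acid, 12 regulators, 6 genes of antigen processing and 2 chemokines. A gene was counted as measured where at least 1 probe set of the array was annotated to it and to no other gene. This left 39 of the 43, among 17309 genes measured in all. Bst2, Xaf1, Eif2ak2 and Nlrc5 had no probe set of their own, so no value is given for them.

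The tissue was left ventricular heart muscle of 8 males at 2 months of age, and each animal's RNA went onto 1 whole-transcript array. The 4 SHR animals (213, 215, 218 and 219) belong to the spontaneously hypertensive rat, an inbred model of high blood pressure. The 4 PD5 animals (207, 209, 210 and 212) belong to a minimal congenic strain of SHR, which means that a small chromosome segment from a donor strain sits on the SHR genome. All 8 were bred in-house, ate standard chow and received no treatment. The donor and the extent of the segment are not given in the labels, nor are litter, array batch or scan date, and animal number runs with strain, so the order of the animals and the strain cannot be told apart. Over the 8 of 10 cardiomyocyte markers measured, the mean log2 value lay between 12.65 and 12.73 in every animal. Array medians lay between 6.93 and 6.98.

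Type I interferons bind a receptor whose Janus kinases phosphorylate STAT2. A complex that holds STAT2 and IRF9 switches on antiviral genes through the interferon-stimulated response element, while interferon gamma acts on the gamma-activated sequence. IRF7 amplifies the type I loop, and IRF1 drives many genes of antigen processing. In the heart the response is best known from viral myocarditis, and a resting heart keeps a low basal level of it.

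No gene of the list differed between the strains past the threshold. Log2 values were compared with limma's moderated test, p-values were adjusted by the method of Benjamini and Hochberg across the 17309 genes, and a gene was called where its adjusted p was under 0.05. This called 9 genes in all, or 0.052%, and 0 of the 39. Without adjustment 5 of the 39 had a p under 0.05, against 5.68% of all genes. Isg15, Cmpk2 and Irf1 were the 3 on the higher side in PD5, where 2.77% of all genes lie. Ifi35 and Trim25 were the 2 on the lower side, against 2.91%. The 4 animals of one strain lay wholly apart from the 4 of the other in 3 of the 39, against 3.46% of all genes. Irf1 was the 1 that lay higher in PD5 (background 1.58%), and Ifi35 and Trim25 were the 2 that lay lower (background 1.88%).

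Of the 39 differences in mean log2 value, PD5 minus SHR, 25 were above 0 and 14 below, that is 64.1% above 0 against 49.9% of all genes. Their median was 0.05 and they ran from -0.45 for Trim25 to 0.41 for Isg15. That count depended on single animals. Without PD5 207 it was 15 of 39, and the median was -0.04. Without SHR 218 it was 20 of 39, and the median was 0.01. All differences below are on this log2 scale. Taken singly, 20 of the 375 probe sets of these genes (5.33%) had an unadjusted p under 0.05, against 4.98% of all 220231 probe sets, and 0 passed, against 0.000908%. The spread among animals of a strain had a median pooled SD of 0.16 in the list against 0.14 over all genes. It was 0.21 in the antiviral effectors, 0.15 in the sensors, 0.13 in the regulators and 0.12 in antigen processing, and the median range over the 8 animals was 0.70 in the effectors against 0.41 over all genes. The limma p-values set the difference between the strains against the spread among animals within the strains, and the number of animals, 8, limits the precision.

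**Figure D1:**
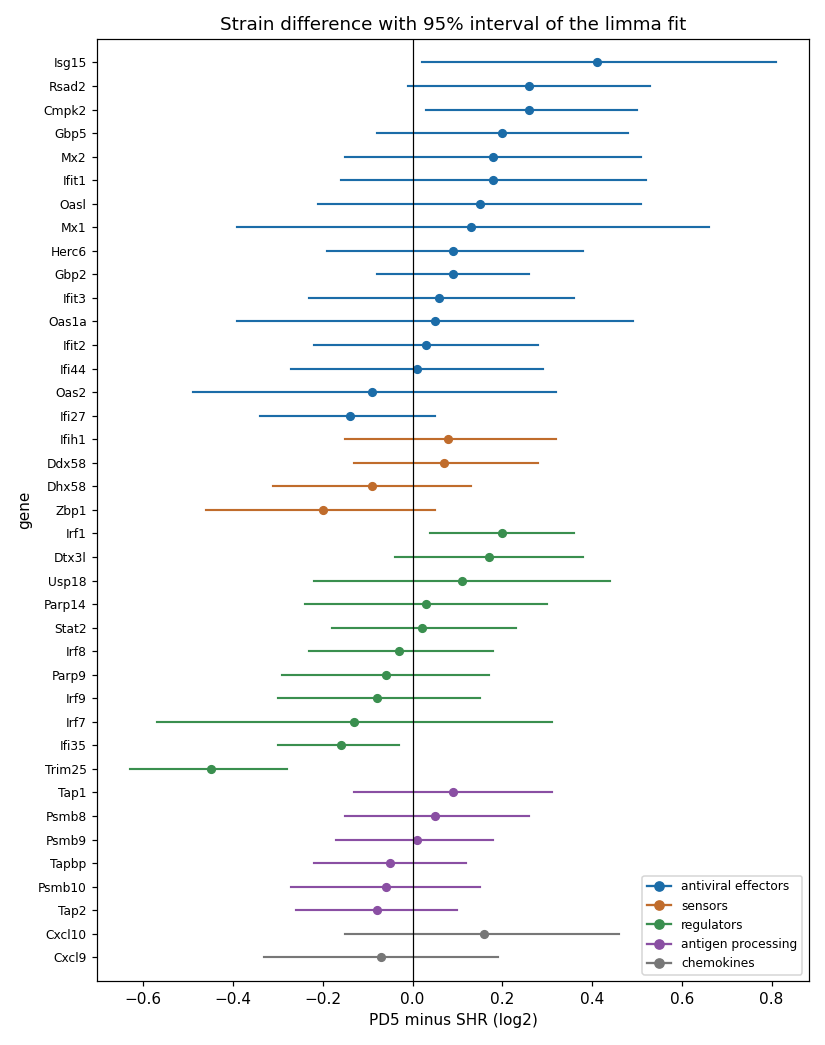
Difference in mean log2 value, PD5 minus SHR, for each of the 39 measured genes (points) with the 95% interval of the limma fit (lines), coloured by role and with 0 as the vertical line. Isg15 at 0.41 and Trim25 at -0.45 lie at the ends, and the intervals of 5 genes (Isg15, Cmpk2, Irf1, Ifi35 and Trim25) exclude 0.

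The promoters were searched for the motifs of the factors named above. RefSeq promoter windows of the GRCr8 assembly, running from 250 bases before to 50 after each start site, were at hand for 33 of the 43 genes. The core of the interferon-stimulated response element was searched as GAAANNGAAA on both strands, and it was found in 20 of the 33 windows (60.6%) against 1312 of 33469 windows over all genes (3.92%). The gamma-activated sequence, TTCNNNGAA, reads alike on both strands and was found in 8 of the 33 (24.2%) against 2970 of all windows (8.87%). The 2 motifs can overlap with each other, and a match is a description of the letters and not a bound site. Windows around the match are printed for 9 genes whose values are given further on, each on the gene's own strand from 5′ to 3′ with the match in capitals. The first is Irf7, the amplifier of the loop, whose match begins 69 bases before the start. In the next 3, which are antiviral effectors, it begins 147 bases before the start in Rsad2, 84 in Ifi27 and 41 in Oas1a. It begins 59 bases before in the sensor Ifih1, 121 in Tap1 and 41 in Tap2, which encode the peptide transporter, and 243 in the chemokine Cxcl10. The last carries the gamma-activated sequence of Irf1, which begins 142 bases before the start.
Irf7, chr1:205800058-205800117, minus strand: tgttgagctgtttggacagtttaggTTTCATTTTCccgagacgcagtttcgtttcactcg
Rsad2, chr6:48788233-48788292, minus strand: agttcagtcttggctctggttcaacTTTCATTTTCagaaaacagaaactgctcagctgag
Ifi27, chr6:128355203-128355262, plus strand: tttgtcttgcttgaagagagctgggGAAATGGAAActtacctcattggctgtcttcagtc
Oas1a, chr12:41330400-41330459, plus strand: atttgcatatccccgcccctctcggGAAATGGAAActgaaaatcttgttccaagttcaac
Ifih1, chr3:67683993-67684052, minus strand: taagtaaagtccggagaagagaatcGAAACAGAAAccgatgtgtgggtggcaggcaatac
Tap1, chr20:4668630-4668689, minus strand: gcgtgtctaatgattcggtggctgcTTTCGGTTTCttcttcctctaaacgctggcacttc
Tap2, chr20:4652303-4652362, minus strand: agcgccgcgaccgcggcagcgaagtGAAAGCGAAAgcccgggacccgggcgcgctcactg
Cxcl10, chr14:15988816-15988857, plus strand: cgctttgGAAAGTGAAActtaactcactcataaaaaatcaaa
Irf1, chr10:38417768-38417826, plus strand: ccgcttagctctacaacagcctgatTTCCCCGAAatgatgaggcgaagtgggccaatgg

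The antiviral effectors, which act directly on viral RNA, protein or replication, had differences above 0 in 14 of 16 measured genes, with a median of 0.11. Without PD5 207 they were above 0 in 8 of 16, with a median of -0.02. Without SHR 218 they were above 0 in 11 of 16, with a median of 0.08. None of the 16 passed the test in any of these cases. Isg15, a ubiquitin-like protein that is attached to newly made proteins, had log2 values of 6.98, 6.41, 6.73 and 6.47 in PD5 and 6.16, 6.46, 5.81 and 6.51 in SHR. PD5 207 was highest and SHR 218 lowest, and the strains overlapped. The difference was 0.41 ± 0.17 (SE, n = 4 per strain), with a 95% interval of 0.02 to 0.81 and a limma adjusted p of 0.844. Its exact permutation p was 0.143, two-sided. All 3 of its probe sets lay on the same side, by 0.46, 0.19 and 0.59. The 0.19 came from the brightest, at a mean of 8.12 in PD5 and 7.93 in SHR. The larger values came from the dimmer probe sets, at strain means of 5.36 to 6.0. Without SHR 218 the difference of the gene was 0.27, or over 1.5 times smaller.

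Rsad2 and Cmpk2 are neighbouring genes, the first encoding viperin, an enzyme that makes a chain-ending nucleotide, and the second a mitochondrial nucleotide kinase. Rsad2 read 9.38, 9.05, 9.09 and 9.05 in PD5 and 8.90, 9.19, 8.70 and 8.76 in SHR, a difference of 0.26 ± 0.12 (SE; limma adjusted p = 0.895). Only SHR 215 reached into the PD5 range. Cmpk2 read 8.93, 8.70, 8.68 and 8.60 in PD5 and 8.44, 8.67, 8.25 and 8.49 in SHR. Again SHR 215 was the single SHR animal within the PD5 range, and the difference was 0.26 ± 0.10 (SE; limma adjusted p = 0.79, exact permutation p = 0.0571, two-sided). Each of its 6 probe sets lay above 0, by 0.12 to 0.35. The smallest p that 4 animals against 4 allow in the exact permutation test is 0.0286. Groups that do not overlap always give that value, so for them it only restates the separation.

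The effectors with the widest spread between animals showed small strain differences. Mx1, a dynamin-like GTPase that traps viral particles, had a pooled SD of 0.40 within strains. It read 8.83, 8.02, 8.11 and 7.73 in PD5 and 7.85, 8.31, 7.70 and 8.30 in SHR, and the difference of 0.13 ± 0.23 (SE) was smaller than its error and lay between -0.09 (without PD5 207) and 0.28 (without PD5 212). The Oas genes encode synthetases of the short oligoadenylates that activate RNase L. Oas1a read 7.20, 6.71, 6.62 and 6.82 in PD5 and 6.56, 6.64, 6.58 and 7.38 in SHR, with PD5 207 and SHR 219 both well above the rest. SHR 219 stood above the other SHR animals on the dimmer probe sets only, at 6.54 and 7.03. On the brightest it read 8.56, among SHR values of 8.44 to 8.60, and PD5 207 read 9.17. Oas2 read 7.71, 6.89, 6.98 and 7.09 in PD5 and 7.23, 7.32, 6.99 and 7.47 in SHR, where PD5 207 held the highest value and the other 3 PD5 animals sat low. The differences were 0.05 for Oas1a, or 0.25 without SHR 219, and -0.09 for Oas2, or -0.27 without PD5 207. The rat has several near-identical Oas1 genes, and cross-hybridisation between them was not tested.

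Among the remaining effectors, Ifit2, which binds foreign RNA and blocks its translation, read 10.04, 9.75, 9.67 and 9.67 in PD5 and 9.67, 9.92, 9.57 and 9.86 in SHR. Its difference was 0.03, with PD5 207 highest and SHR 218 lowest. Ifi27, a small interferon-induced membrane protein, ran the other way, with 10.21, 10.02, 9.93 and 9.90 in PD5 and 10.13, 10.24, 10.02 and 10.24 in SHR. It had a difference of -0.14 ± 0.09 (SE; limma adjusted p = 0.966, exact permutation p = 0.143) and overlapping strains. Ifi44 had the smallest difference of the effectors, at 0.01. The 8 effectors not described by their values (Gbp5, Mx2, Ifit1, Oasl, Herc6, Gbp2, Ifit3 and Ifi44) had differences of 0.01 to 0.20 and limma adjusted p-values of 0.966 to 0.996.

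The sensors recognise viral nucleic acid in the cytosol and start interferon production. Of the 4 measured, 2 lay above 0 and 2 below, with a median of -0.01, and none had an unadjusted p under 0.05. Ifih1, which senses long double-stranded RNA, read 8.64, 8.52, 8.23 and 8.44 in PD5 and 8.38, 8.51, 8.17 and 8.43 in SHR, a difference of 0.08. Ddx58, the sensor also called RIG-I, differed by 0.07. Dhx58, which modulates both of these sensors, read 6.40, 6.35, 6.18 and 6.06 in PD5 and 6.44, 6.40, 6.14 and 6.37 in SHR, a difference of -0.09. In both Ifih1 and Dhx58 the ranges of the strains overlapped widely. Zbp1, which binds Z-form nucleic acid and can start necroptosis, read 5.62, 5.43, 5.59 and 5.16 in PD5 and 5.72, 5.79, 5.55 and 5.56 in SHR. PD5 212 was lowest, and the difference of -0.20 ± 0.11 (SE; limma adjusted p = 0.933, exact permutation p = 0.171) was -0.10 without that animal.

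The regulators held the 3 genes whose strains did not overlap, but in opposite directions. In all, 5 of 11 lay above 0 and 6 below, with a median of -0.03. Trim25, an E3 ligase that ubiquitinates RIG-I and can attach ISG15, read 8.92, 8.89, 8.83 and 8.81 in PD5 and 9.32, 9.44, 9.38 and 9.12 in SHR. Every PD5 animal lay below every SHR animal, with a gap of 0.21 between the groups. The difference of -0.45 ± 0.08 (SE; 95% interval -0.63 to -0.28) put PD5 at 0.73 times the SHR level. It was the gene of the list closest to the threshold, with an unadjusted limma p of 0.000247, an adjusted p of 0.153 and an exact permutation p of 0.0286. With limma's trend and robust options, which called 47 genes in all, Trim25 was the 1 gene of the list to pass (adjusted p = 0.00578). With the median of its probe sets the difference was -0.33 (limma adjusted p = 0.719). With the brightest probe set it was -0.30 (limma adjusted p = 0.932).

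All 9 probe sets of Trim25 lay below 0, by -0.09 to -1.62, and in 3 the strains did not overlap. The difference of -1.62 came from the 8th probe set, which was dim, at a mean of 2.08 in PD5 and 3.70 in SHR, and scattered widely among the SHR animals between 1.98 and 5.31. Leaving out probe sets with a mean under 4, an alternative chosen after the values were seen, gave a difference of -0.31 and an adjusted p of 0.261. Whether a sequence difference between the strains lies under any of these probe sets was not tested.

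**Figure D2:**
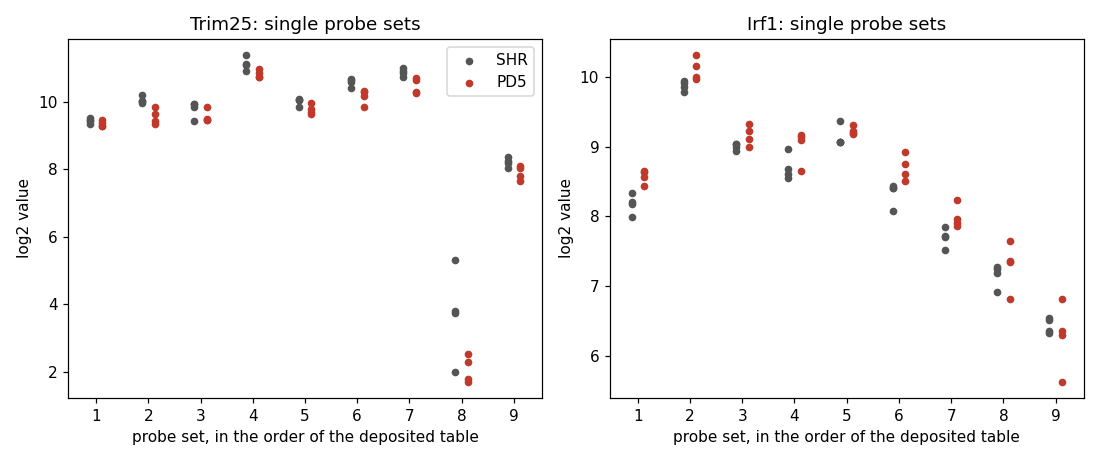
Log2 value of each animal (points) for the 9 probe sets of Trim25 (left) and the 9 of Irf1 (right), SHR in grey and PD5 in red, in the order of the deposited table. PD5 means lie below SHR means in 9 of 9 probe sets of Trim25, most widely at the dim 8th, and above them in 8 of 9 of Irf1.

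Irf1, the transcription factor behind much interferon-gamma-induced expression, read 8.57, 8.45, 8.56 and 8.34 in PD5 and 8.26, 8.31, 8.21 and 8.34 in SHR. Every PD5 animal lay above every SHR animal, but PD5 212 and SHR 219 were only 0.0011 apart. The difference was 0.20 ± 0.07 (SE; limma adjusted p = 0.775, exact permutation p = 0.0286), and 8 of 9 probe sets lay above 0. Ifi35, a leucine-zipper protein of the response, read 6.88, 6.88, 6.96 and 6.92 in PD5 and 7.07, 7.08, 7.0 and 7.14 in SHR. Its groups were 0.034 apart and its difference was -0.16 ± 0.06 (SE; limma adjusted p = 0.775, exact permutation p = 0.0286). None of its 8 probe sets separated the strains singly, and 6 of them lay below 0. Dtx3l, an E3 ligase that partners Parp9, read 8.78, 8.55, 8.51 and 8.47 in PD5 and 8.44, 8.57, 8.28 and 8.34 in SHR. SHR 215 overlapped with the PD5 animals, and the difference was 0.17 ± 0.09 (SE; limma adjusted p = 0.933, exact permutation p = 0.143), or 0.10 without PD5 207.

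The core transcription factors of the type I response did not separate the strains. Irf7 read 9.23, 8.54, 8.80 and 8.36 in PD5 and 8.73, 9.14, 8.56 and 9.01 in SHR, so that the highest and the lowest animal were both PD5. Its difference of -0.13 ± 0.19 (SE; 95% interval -0.57 to 0.31) leaves room for a shift of either sign, and it was -0.29 without PD5 207 and -0.0034 without PD5 212. The low value of PD5 212 came in part from 1 of the 10 probe sets of Irf7. That probe set read 4.56 in PD5 212 and 6.64 to 7.69 in the other animals. Stat2, the partner of Irf9 in the interferon-activated complex, read 8.62, 8.34, 8.39 and 8.30 in PD5 and 8.34, 8.46, 8.26 and 8.49 in SHR, a difference of 0.02. The other regulators, Usp18, Parp14, Irf8, Parp9 and Irf9, differed by -0.08 to 0.11, with limma adjusted p-values of 0.992 to 0.996.

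**Figure D3:**
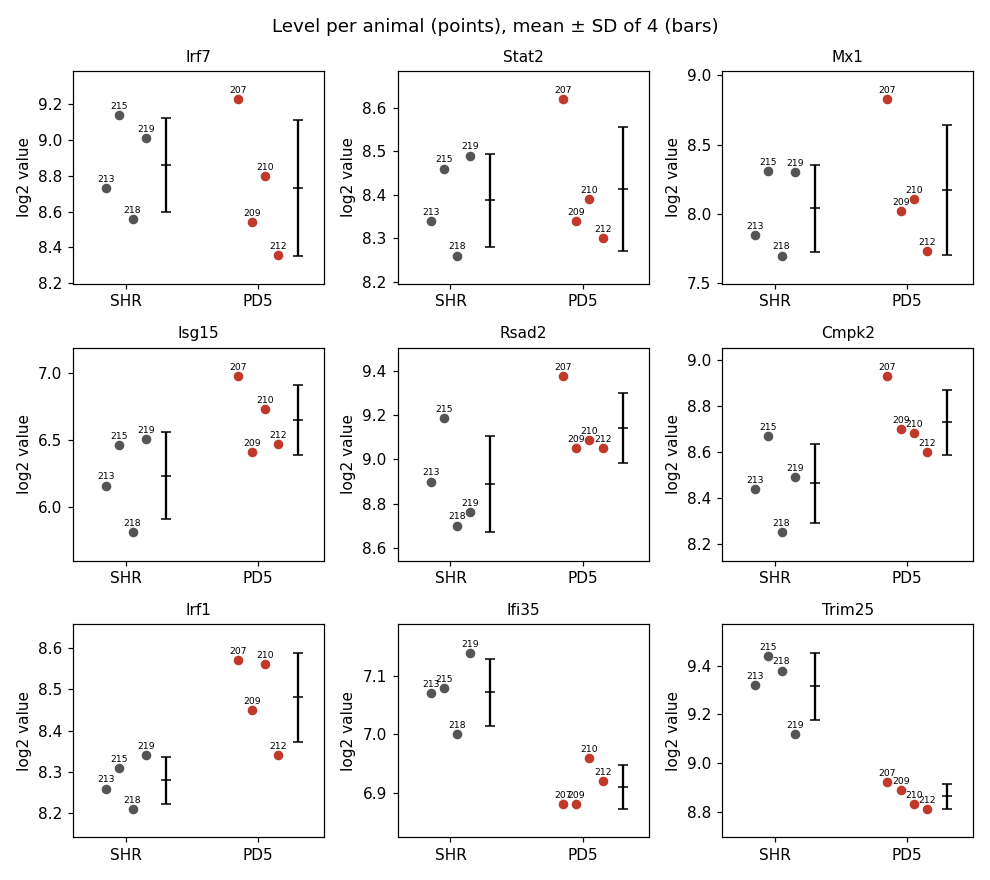
Log2 value of each animal (points, with its number) in SHR (grey) and PD5 (red) for 9 genes, with the mean ± SD of 4 animals beside each group; every panel has its own axis, which does not start at 0. PD5 207 is the highest PD5 animal in 8 of the 9 panels, and the groups lie apart for Irf1, Ifi35 and Trim25.

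Genes of antigen processing cut proteins into peptides and load them onto class I molecules. Of the 6, 3 lay above 0 and 3 below, between -0.08 and 0.09 with a median of -0.02, and none had an unadjusted p under 0.05. Tap1 and Tap2 form the transporter that moves peptides into the endoplasmic reticulum. Tap1 read 7.39, 7.14, 7.17 and 7.12 in PD5 and 7.06, 7.31, 6.92 and 7.16 in SHR, a difference of 0.09. With the median of its probe sets the difference was 0.47 (limma adjusted p = 0.498), and it was 0.03 without PD5 207 or without SHR 218. Tap2 read 6.47, 6.71, 6.61 and 6.78 in PD5 and 6.79, 6.76, 6.65 and 6.69 in SHR, a difference of -0.08, with PD5 207 lowest. It was -0.02 without that animal and -0.35 with the brightest probe set. PD5 207 was thus at the top for one transporter gene and at the bottom for the other. Psmb10, a catalytic subunit of the immunoproteasome, read 7.81, 7.78, 7.87 and 7.70 in PD5 and 7.60, 8.04, 7.88 and 7.88 in SHR, a difference of -0.06 with the PD5 animals inside the SHR range. Psmb9, another such subunit, differed by 0.01 (95% interval -0.17 to 0.18).

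Both chemokines attract activated T cells. Cxcl10 read 7.07, 6.72, 6.75 and 7.0 in PD5 and 6.85, 6.89, 6.80 and 6.35 in SHR. SHR 219 alone was low, and the difference of 0.16 ± 0.13 (SE) was 0.03 without that animal. Cxcl9 read 8.27, 8.35, 8.14 and 8.03 in PD5 and 8.03, 8.53, 8.17 and 8.31 in SHR, a difference of -0.07. The limma adjusted p was 0.989 for Cxcl10 and 0.992 for Cxcl9.

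Single animals stood out across the list. PD5 207 held the highest of the 8 values in 25 of the 39 genes (64.1%), while it held it in 12.4% of all genes. Among the antiviral effectors it was highest in 14 of 16, among the regulators in 7 of 11, among the sensors in 2 of 4, and in antigen processing in 1 of 6. The exceptions among the effectors were Oas1a and Ifi27, which were highest in SHR 219 and SHR 215. On the brightest probe set of Oas1a, PD5 207 was highest, at 9.17. At the other end, SHR 218 held the lowest value in 17 of 39 genes (43.6%) against 18.3% of all genes, and in 8 of 16 effectors. SHR 215 was highest in 6 of 39 (15.4%) and lowest in 0, against 12.5% and 9.32% of all genes. The other 3 PD5 animals were highest in 1 gene between them, which was Irf8 in PD5 210. Each of those animals was highest in 9.57% to 14.9% of all genes.

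Measured as deviation from each gene's mean over the 8 animals, the median over the 16 effectors was 0.41 in PD5 207, 0.10 in SHR 215 and 0.07 in SHR 219. It was -0.22 in SHR 218 and -0.12 in SHR 213, and lay between -0.09 and -0.04 in the other 3 PD5 animals. Over all genes the same median lay between -0.02 and 0.02 in every animal. That mean includes PD5 207, which lowers the deviations of the rest. As levels, the mean over the effectors was 8.78 in PD5 207 and 8.29 to 8.33 in the other 3 PD5 animals. It was 8.44 in both SHR 215 and SHR 219, 8.23 in SHR 213 and 8.13 in SHR 218. These counts describe single animals and carry no test.

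**Figure D4:**
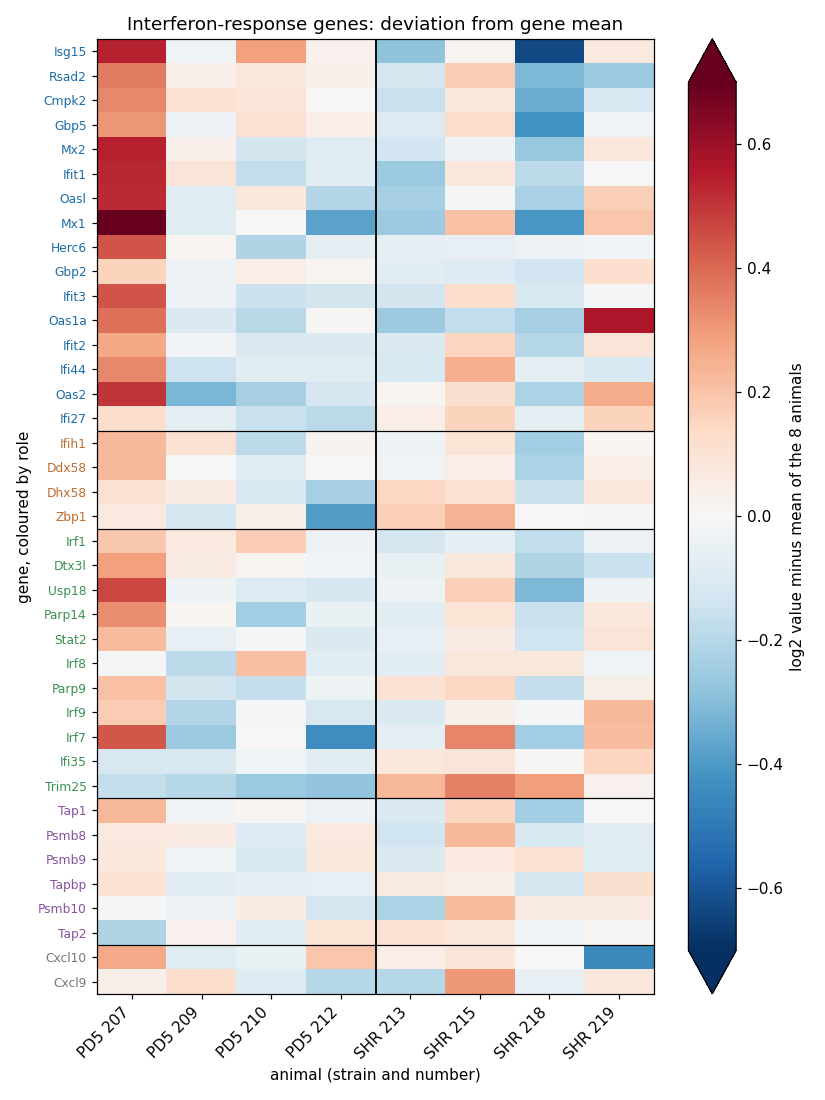
Log2 value minus the mean of the 8 animals (colour, red above and blue below the mean) for the 39 genes (rows, name coloured by role: antiviral effectors, sensors, regulators, antigen processing, chemokines) in each animal (columns). PD5 207 is red in most rows of the effectors and regulators, and SHR 218 is blue in many of them.

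**Figure D5:**
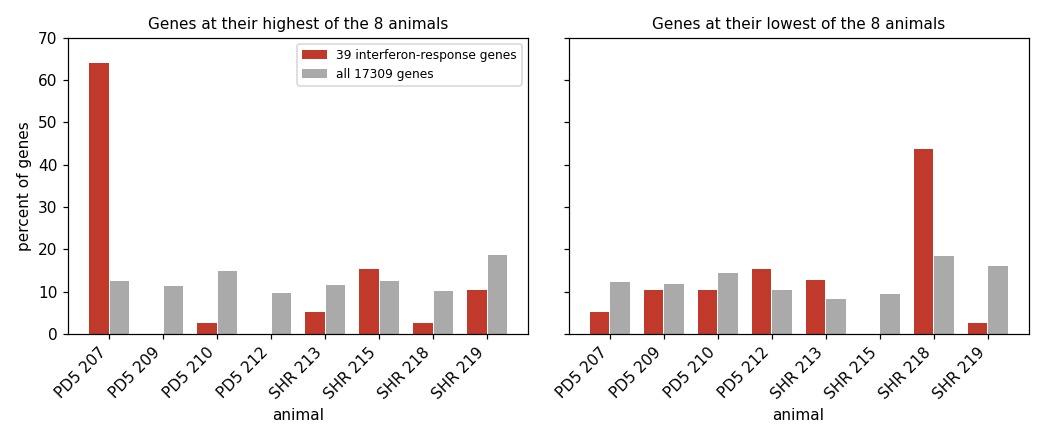
Percent of genes that reach their highest (left) or lowest (right) value in each of the 8 animals, for the 39 interferon-response genes (red) and for all 17309 genes (grey). PD5 207 holds 64.1% of the highest values and SHR 218 holds 43.6% of the lowest, against 12.4% and 18.3% over all genes.

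Immune cells express many of these genes, so their markers were read beside it. In PD5 207 the mean log2 value over all 12 macrophage and monocyte markers was 8.24, the 7th of the 8 animals, that over 12 of 14 lymphocyte markers was 6.03, the 5th, and that over 8 of 9 dendritic cell markers was 6.69, the 6th. That animal therefore did not lead in any of the 3 lists. SHR 218, low in the interferon genes, ranked 3rd for macrophage markers at 8.32 and last for dendritic cell markers at 6.65. Between the strains, 11 of 12 macrophage markers lay below 0, with a median of -0.10 and means of 8.17 to 8.28 in PD5 against 8.26 to 8.50 in SHR. Cd163 and Mrc1, scavenger and mannose receptors of resident macrophages, were lower in PD5 by values of -0.41 (limma adjusted p = 0.775) and -0.28 (0.886). Lymphocyte means lay at 5.94 to 6.15 in PD5 and 6.01 to 6.10 in SHR, dendritic cell means at 6.69 to 6.80 and 6.65 to 6.82, endothelial means at 10.03 to 10.12 and 9.96 to 10.08, and granulocyte means at 5.03 to 5.21 and 5.04 to 5.27. Differences were above 0 in 5 of 12 lymphocyte, 3 of 8 dendritic cell, 5 of 6 endothelial and 2 of 6 granulocyte markers measured, and 0 markers of any list passed. Vwf, the von Willebrand factor of endothelial cells, was the 1 marker whose strains did not overlap, at 9.37, 9.30, 9.32 and 9.35 in PD5 and 9.16, 9.21, 9.14 and 9.21 in SHR (difference 0.16, limma adjusted p = 0.775). Of all genes, 3.46% had strains that did not overlap. Egfl7, also endothelial, differed by 0.10. The 2 leading markers of the other lists overlapped between the strains, with differences of 0.20 for Ms4a1 and -0.14 for Cd79a (B cells), 0.09 for Tcf4 and -0.22 for Flt3 (dendritic cells), and -0.34 for Cxcr2 and -0.13 for Elane (granulocytes). Those of the cardiomyocyte list were Csrp3 at -0.05 and Tnni3 at -0.04. The arrays have no zero, so whether a marker is absent cannot be read from them. In a whole ventricle, fewer cells of a type and less RNA per cell cannot be told apart, and the part of the cell makeup in the interferon values was not tested.

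Irf7 served as the anchor for how the genes moved together across the 8 animals. Its value in PD5 212 was lowered by 1 probe set, and the part of that probe set in the correlations was not tested. The correlation with Irf7 was above 0 in 35 of the other 38 genes, with a median Pearson r of 0.61 against 0.04 over the 17270 genes outside the list. It was above 0.8 in 5 of 38 (13.2%) against 0.973% outside, and its exact permutation p, unadjusted, was under 0.05 in 13 of 38 (34.2%) against 4.67%. Adjusted over all 17308 relations none passed, in the list or outside it, the smallest adjusted p being 0.983. With the strain means removed the median r was 0.77. Without PD5 207 the median r was 0.47.

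Stat2 and Mx1 followed Irf7 most closely. Stat2 had an r of 0.91 (exact permutation p = 0.00136, adjusted 0.983) and a Spearman rho of 0.86 (p = 0.0107, adjusted 0.943). Mx1 had an r of 0.89 (p = 0.00171, adjusted 0.983) and a rho of 0.88 (p = 0.00724, adjusted 0.943), by exact permutation. Without PD5 207 and PD5 212, the 2 animals farthest from the median of Irf7, r was 0.91 for Stat2 and 0.84 for Mx1. Ifit2, Ifi27 and Oas2 came next at 0.85, 0.84 and 0.81, and at 0.82, 0.76 and 0.82 without those animals. Their rho values were 0.73, 0.78 and 0.74, with exact permutation p-values for r of 0.00893, 0.013 and 0.0152. The value of r turned sign without those 2 animals for Herc6 (0.49 with all 8, -0.17 without), Irf1 (0.33 and -0.02) and Tap2 (-0.49 and 0.27). With the strain means removed and all 8 animals kept, r was 0.58 for Herc6, 0.87 for Irf1 and -0.64 for Tap2. Of the 20 genes with the highest r over the whole array, 1 belonged to the list, Stat2 at rank 15.

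By role, the median r with Irf7 was 0.63 for the antiviral effectors, 0.68 for the sensors, 0.58 for the regulators, 0.41 for antigen processing and 0.28 for the chemokines. Trim25 (0.25), Cxcl10 (-0.04), Psmb9 (-0.06) and Tap2 (-0.49) had the 4 lowest values. Over all pairs of genes, not only those with Irf7, the median r was 0.71 within the effectors, 0.59 within the sensors, 0.30 within the regulators and 0.08 within antigen processing, beside 0.01 between pairs of 1731 genes taken at a fixed step from the array. These are values over the same 8 arrays, and whether the roles differ was not tested.

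The rest of the pathway showed no call either. Of 50 further genes, 43 were measured, 19 above 0 and 24 below. Of these 0 passed, 5 had an unadjusted p under 0.05, and in 5 the strains did not overlap, 3 higher and 2 lower in PD5. The backgrounds are again 5.68% and 3.46%, and Myd88, an adaptor of Toll-like receptors with a difference of 0.14, makes up the 3 that lay higher together with Sting1 and Socs3. Among 8 receptors and Janus kinases, Ifngr1, the ligand-binding chain of the interferon gamma receptor, read 9.94, 10.06, 9.92 and 10.09 in PD5 and 10.24, 10.17, 10.24 and 10.45 in SHR. Every PD5 animal lay below every SHR animal, with a difference of -0.27 ± 0.08 (SE; limma adjusted p = 0.6). Tyk2, a kinase of the type I receptor, differed by -0.06. Among 9 genes of upstream sensing, Tlr7, a receptor for single-stranded RNA in endosomes, read 7.58, 7.36, 7.59 and 7.35 in PD5 and 7.79, 7.78, 7.88 and 8.36 in SHR. It too lay wholly lower in PD5, by -0.48 ± 0.13 (SE; limma adjusted p = 0.572). The macrophage markers, with 11 of 12 below 0, lay on the same side, and their part in the value of Tlr7 was not tested. Sting1, the adaptor of cytosolic DNA sensing, lay wholly higher, at 6.18 to 6.34 in PD5 and 5.93 to 6.14 in SHR (0.22 ± 0.07, SE; limma adjusted p = 0.668).

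Among 8 feedback inhibitors, Socs3, which blocks Janus kinases, had the smallest adjusted p of these genes. It read 7.09, 7.15, 7.30 and 7.06 in PD5 and 6.63, 6.97, 6.78 and 6.78 in SHR, on a single probe set. The groups lay 0.09 apart, and the difference was 0.36 ± 0.09 (SE; limma adjusted p = 0.469). Ptpn2, a phosphatase of the pathway, differed by 0.16. Among 12 genes of class I loading and the standard proteasome, with 2 above 0 and 10 below, Ciita, the master regulator of class II genes, differed by -0.24 and Psme1, an activator subunit of the proteasome, by -0.15. For Ciita SHR 218 alone was high, at 6.35. The other SHR animals read 5.77 to 5.83, against 5.59 to 5.81 in PD5. Of the 6 interferons measured, 4 lay above 0 and 2 below. Ifnk, at 3.31 to 3.67 in PD5 and 3.04 to 3.34 in SHR, differed by 0.24, and Ifna5, at 3.46 to 4.22 and 3.80 to 4.31, by -0.29. These 2 were dim, at the 4.1 and 7.6 percentile of mean level over all genes, and no measured interferon lay above the 38.3 percentile. Differences so near the low end of the array are uncertain. The other 7 of the 50 had no probe set of their own.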

How the data were processed

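The deposited values were log2 expression values of 220231 probe sets on 8 arrays, which the authors produced in Partek 6.6 according to the submitters' processing notes. The sources used here do not say how they were background-corrected, scaled and summarised. They were used as deposited, with no filter on dim genes. Of the probe sets, 166557 named 1 gene, 1631 several and 52043 none in the platform annotation. Symbols were updated through the GRCr8 gene table (14377 current, 2840 replaced, 92 without a match), which served for names only. Ddx58 kept its array name.

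The value of a gene is the average over its own probe sets, a median of 8, with 2377 genes resting on 1. Strains were compared with limma 3.58.1 (lmFit, eBayes) in R 4.3.3, two-sided, adjusted by Benjamini-Hochberg over all genes with a threshold of 0.05. Intervals are 95% intervals of that fit. The functions were tested on simulated data. Exact permutation tests of single genes are two-sided and not adjusted. Correlations with Irf7 used all pairings of the 8 animals. Their adjustment was planned over the list alone and was instead made over all 17308 genes, a change made after the values were seen.

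The members, the lists and the tests were chosen with earlier results of these data known, so no list is independent evidence. Values in every animal are given for genes with an unadjusted p under 0.05 or groups that do not overlap, for the 3 largest differences of each role, for Irf7 and Stat2, for the 3 largest SDs within strains and for the 5 highest correlations with Irf7. Of each further list the 2 genes with the largest moderated t were named, and the gene with the smallest difference of each role may be named. Myd88 was named after its values were seen. Alternatives varied the scaling, the value per gene, the filter, the variance model and the animals included. Those for the count of antiviral effectors above 0 were added after the values were seen.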

Additional observations from a re-analysis of the deposited data

Results flagged for a closer look

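In 10 of 90 groups of 4 animals checked, 1 animal stood so far from the other 3 that its gap to the nearest of them, as a share of the whole range, exceeded Dixon's 95% critical value. Chance alone flags about 1 in 20 groups. Among the 39 genes it was 9 of 78 groups (11.5%), and over all 17309 genes 1828 of 34618 (5.28%). Genes that move together are not independent checks.

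PD5 207 was the high animal in 5 of the 10. In PD5 the share was 0.857 for Rsad2 (9.38, the others 9.05 to 9.09), 0.854 for Ifi44 (8.95, the others 8.47 to 8.54), 0.867 for Usp18 (9.14, the others 8.56 to 8.64) and 0.848 for Tapbp (8.31, the others 8.13 to 8.15). It was 0.95 for the median level of the antiviral effectors in PD5, at 8.94 in PD5 207 and 8.64 to 8.66 in the others. SHR 215 was the high animal for Ifi44 in SHR (0.882, at 8.87 against 8.51 to 8.55) and for Psmb8 in SHR (0.832, at 8.16 against 7.79 to 7.85). SHR 219 was high for Oas1a in SHR (0.906, at 7.38 against 6.56 to 6.64) and low for Cxcl10 in SHR (0.837, at 6.35 against 6.80 to 6.89). For Oas1a this did not hold on the brightest probe set, where SHR 219 read 8.56 among SHR values of 8.44 to 8.60. PD5 210 was low for Psmb8 in PD5 (0.955, at 7.84 against 7.99 to 8.00).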

How the results depend on the processing

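Of 503 alternative values, 466 kept their direction and their side of the threshold or moved by less than the spread, and 18 reversed. The count of genes passing, 9 as reported, was 5 with quantile normalization, 0 with the brightest probe set, 47 with limma's trend and robust options (15 higher, 32 lower) and 1 to 7 when 1 animal was left out. The count within the list was 1 with trend and robust, Trim25 at -0.45 (adjusted p = 0.00578), and 0 under every other alternative run. With 1 animal left out the list's count above 0 was 15 (without PD5 207) to 27, that of the antiviral effectors 8 (without PD5 207) to 15, and the effectors' median difference -0.02 to 0.21. The median r with Irf7 was 0.77 for deviations from strain means, 0.51 with the median of the probe sets, 0.48 with the brightest probe set, and 0.47 to 0.70 with 1 animal left out. Small differences changed sign. With the median of the probe sets Psmb10 was 0.15, Stat2 -0.0088 and Oas1a -0.04. With the brightest probe set Dhx58 was 0.06, Dtx3l -0.0025 and Oas1a -0.03. With 1 animal left out the ranges were -0.14 to 0.0044 for Psmb10, -0.14 to 0.02 for Cxcl9, -0.05 to 0.06 for Stat2, -0.09 to 0.28 for Mx1, -0.07 to 0.25 for Oas1a, -0.05 to 0.09 for Ifit2 and -0.27 to 0.008 for Oas2. Other values moved by over 1.5 times with their sign kept. With the median of the probe sets Irf1 was 0.36, Cxcl10 0.28, Cxcl9 -0.18, Ifit2 0.11, Ifi27 -0.07, Oas2 -0.25 and Irf7 -0.06. With the brightest probe set Isg15 was 0.19, Rsad2 0.17, Ifi35 -0.29, Trim25 -0.30, Cxcl10 0.07, Mx1 0.23, Stat2 0.22 and Irf7 -0.02. The cause was not tested. No paired analysis was possible because the strains share no animal number. The number of arrays limits the precision, and array values carry no depth.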
